A study of Homo sapiens with 8 samples.

Results

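The transcription factor REST, the CoREST corepressor genes RCOR1, RCOR2 and RCOR3 and the neuronal genes VGF, NPTX1, SCG2, ADRA2A and KCNIP1 were examined across the EGF and SYK conditions of an ovarian carcinoma line. They were found by matching the RefSeq accessions in the deposited table to these symbols, which gave 9 of 27757 loci, 1 for each gene. Its unit is FPKM, sequenced fragments scaled to transcript length and library size. REST, RCOR1 and RCOR3 are included as parts of the complex, while the other 6 were picked with their EGF responses in view. For those 6 the EGF values are therefore a description and carry no test. Their comparisons between genotypes use the same libraries, so the p-values given there are not free of that choice. REST is a zinc finger repressor that binds the RE1 element beside many neuronal genes and keeps them silent outside the nervous system. CoREST proteins tie REST to the demethylase LSD1 and to the histone deacetylases HDAC1 and HDAC2. Neuronal genes such as VGF and NPTX1 are also known to respond to growth factors and to activity in neurons.

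OVISE is an established line of ovarian clear cell carcinoma. The groups were SYK-KO cells given EGF, untreated SYK-KO cells, SYK-WT cells given EGF and untreated SYK-WT cells, with 2 libraries each, and EGF was applied at 50 ng/ml for 24 h. SYK, a non-receptor tyrosine kinase, was knocked out with a Cas9 nickase and a guide pair in exon 2, followed by puromycin selection, cloning from single cells and a check by immunoblot, per the labels. The number of clones sequenced is not given in the labels, nor is it stated whether the SYK-WT cells were cloned. Separate cultures for the libraries of a pair are not stated either, so every p-value here reflects the spread among these libraries alone, and that spread may be technical. The series asks how SYK shapes transcription downstream of the EGF receptor.

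The estimated depth was 22900000 to 27400000 fragments per library. The scaling of the libraries is not given, so this value may be the scaling factor of the FPKM and not the depth. A locus was tested if 2 or more libraries held at least 1 FPKM of it, which kept 12112. SYK itself had 2.80 and 3.16 FPKM in SYK-KO EGF, 3.11 and 3.43 FPKM in SYK-KO, 3.88 and 3.62 FPKM in SYK-WT EGF and 4.91 and 5.30 FPKM in SYK-WT libraries, and nicks in an exon need not remove a transcript, so this level is no check of the knockout. All 6 epithelial and clear cell markers, among them EPCAM, KRT8, KRT18, CDH1 and PAX8, were present in every library. Of 9 markers of neuronal and neuroendocrine identity, 8 stayed under 1 FPKM in every library, among them NEUROD1, INSM1, RBFOX3, ELAVL3, ELAVL4, MAP2 and NCAM1. The exception was ENO2, the neuronal enolase, which set most of the list's sum of 13.9 to 21.4 FPKM in SYK-KO cells with and without EGF and 28.9 to 40.7 FPKM in SYK-WT cells with and without EGF. Of 9 blood, stromal, endothelial and mesothelial markers, 7 (PTPRC, COL1A1, COL1A2, PDGFRB, PECAM1, CDH5 and WT1) stayed at or under 0.438 FPKM, while CALB2 and LAPTM5 were tested. The untreated SYK-WT pair lay further apart than the other pairs, with a median absolute log2 gap over all loci tested of 0.15, where the remaining pairs had 0.0669 to 0.0828.

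REST was modestly lower in SYK-KO than in SYK-WT cells, the mean being 0.740 of that of SYK-WT with EGF and 0.759 of it untreated. REST (chr4:57774042-57802010, hg19) had 4.85 and 4.95 FPKM in SYK-KO EGF libraries, 4.54 and 4.79 in SYK-KO libraries, 6.36 and 6.88 in SYK-WT EGF libraries and 6.87 and 5.42 in SYK-WT libraries. No SYK-KO library reached the lowest SYK-WT library, whether treated or not. Differences here are of log2(FPKM + 1), a scale that compresses changes at low levels. For REST the difference was -0.37 ± 0.103 with EGF (SE, n = 2 per group; limma, Benjamini-Hochberg adjusted p = 0.0224) and -0.33 ± 0.103 untreated (limma adjusted p = 0.0368). These are small differences near the threshold. With EGF the call ended without SYK-WT EGF replicate 1 or 2 (adjusted p = 0.0628 and 0.125) and without SYK-KO EGF replicate 1 or 2 (0.0988 and 0.0803). Untreated, it held in only 4 of 14 alternatives (adjusted p from 0.00216 to 0.172) and ended when any library but SYK-WT replicate 2 was left out; without SYK-WT replicate 1 the difference was -0.18 (limma adjusted p = 0.106). In the authors' deposited table, REST had q = 0.0422 with EGF and q = 0.0703 untreated. The EGF difference of REST was 0.06 in SYK-KO cells (95% interval -0.18 to 0.30; limma adjusted p = 0.772) and 0.10 in SYK-WT cells (-0.14 to 0.34; limma adjusted p = 0.505). In SYK-WT cells it was 0.25 without SYK-WT replicate 1, where it passed (limma adjusted p = 0.0403), and -0.05 without replicate 2. In bulk RNA, fewer cells that express a gene and less RNA per cell cannot be told apart, here and below.

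**Figure D1:**
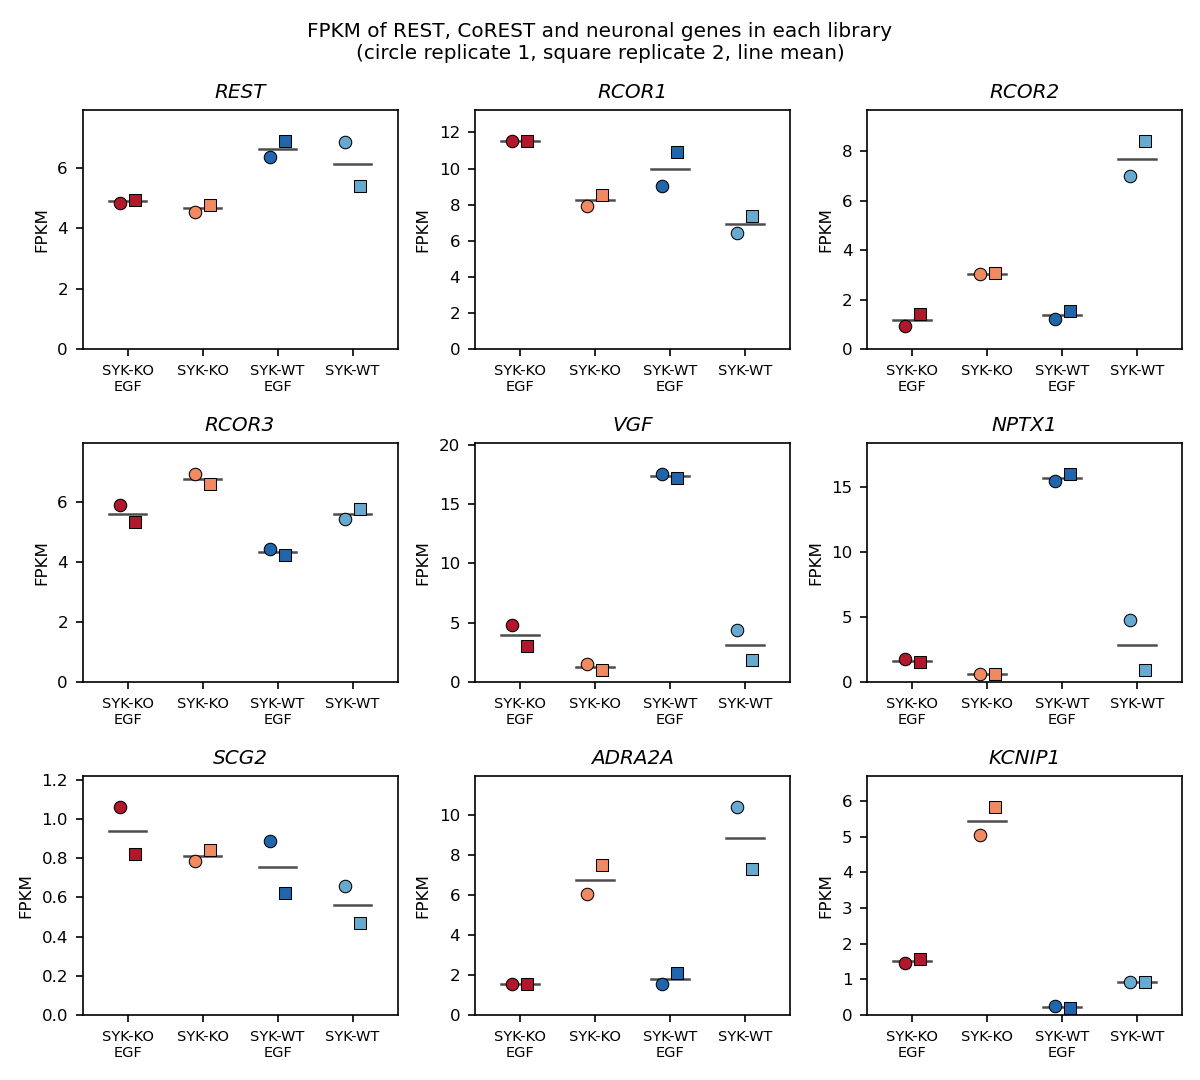
FPKM (vertical axes, each from 0) of the 9 genes in each of the 8 libraries, by group on the horizontal axes; circles are replicate 1, squares replicate 2 and lines the means. VGF and NPTX1 are highest in the SYK-WT EGF libraries, RCOR2 and ADRA2A in the untreated groups, and KCNIP1 in untreated SYK-KO cells, while SCG2 stays between 0.467 and 1.06 FPKM.

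Among the CoREST genes, RCOR2 was the most variable. CoREST proteins have ELM2 and SANT domains and act as the bridge between REST and the LSD1 and histone deacetylase module. RCOR2 (chr11:63678693-63684316, hg19) had 0.944 and 1.44 FPKM in SYK-KO EGF libraries, 3.05 and 3.07 in SYK-KO libraries, 1.23 and 1.55 in SYK-WT EGF libraries and 7.0 and 8.40 in SYK-WT libraries. In both genotypes every EGF library lay below every untreated library, and the untreated SYK-WT pair stood highest. As a description, the mean after EGF was 0.390 of the untreated mean in SYK-KO cells and 0.181 of it in SYK-WT cells. Between genotypes, RCOR2 was lower in untreated SYK-KO than in SYK-WT cells by a log2 difference of -1.10 ± 0.133 (limma adjusted p = 0.000728), a call that held in all 14 alternatives. With EGF the difference was -0.13 (95% interval -0.44 to 0.18; limma adjusted p = 0.446), and it was 0.03 without SYK-KO EGF replicate 1.

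RCOR1, the founding CoREST, moved the other way under EGF and was the most abundant of the 3 in every library except the untreated SYK-WT pair. RCOR1 (chr14:103058996-103196913, hg19) had 11.5 and 11.5 FPKM in SYK-KO EGF libraries, 7.92 and 8.55 in SYK-KO libraries, 9.05 and 10.9 in SYK-WT EGF libraries and 6.45 and 7.37 in SYK-WT libraries. EGF-treated and untreated libraries did not overlap within either genotype. RCOR1 rose after EGF by 0.44 ± 0.1 in SYK-KO cells (limma adjusted p = 0.0298) and by 0.47 ± 0.1 in SYK-WT cells (limma adjusted p = 0.0127). Leaving out SYK-KO replicate 1 or 2 ended the SYK-KO call (adjusted p = 0.179 and 0.125), as did leaving out either SYK-KO EGF library (0.148 and 0.132), and the SYK-WT call ended without SYK-WT EGF replicate 2 (0.0897). The genotype difference of RCOR1 was 0.19 with EGF (limma adjusted p = 0.157) and 0.22 untreated (limma adjusted p = 0.107), and the untreated value was 0.31 without SYK-WT replicate 2, where it passed (0.0405).

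RCOR3, a related paralogue, had 5.89 and 5.32 FPKM in SYK-KO EGF libraries, 6.92 and 6.61 in SYK-KO libraries, 4.45 and 4.23 in SYK-WT EGF libraries and 5.42 and 5.75 in SYK-WT libraries (chr1:211432708-211489725, hg19). Its values were lower after EGF in both genotypes and, with EGF, higher in SYK-KO than in SYK-WT cells. Against SYK-WT the difference was 0.31 ± 0.0773 with EGF (limma adjusted p = 0.015) and 0.24 ± 0.0773 untreated (limma adjusted p = 0.0403), while the authors' deposited table gave q = 0.206 and q = 0.363. The call with EGF ended without SYK-WT EGF replicate 1 (adjusted p = 0.0547) or 2 (0.0943) and without SYK-KO EGF replicate 1 (0.0988), and the untreated call held in 4 of 14 alternatives (0.0289 to 0.202) and ended without any library other than SYK-WT replicate 2. The EGF difference was -0.23 in SYK-KO cells (limma adjusted p = 0.0937) and -0.30 in SYK-WT cells (limma adjusted p = 0.0253), of which the SYK-WT call held in 6 of 14 alternatives (0.0151 to 0.144) and ended without SYK-WT replicate 2, either untreated SYK-KO library or either SYK-WT EGF library. The SYK-KO value passed without SYK-WT replicate 1 (0.0440) or 2 (0.0438), which are not part of it but of the shared spread.

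Because FPKM is scaled to transcript length, the 3 CoREST genes can be set against each other within a library. RCOR2 made up 5.15 and 7.89% of their summed FPKM in SYK-KO EGF libraries, 17 and 16.8% in SYK-KO libraries, 8.35 and 9.29% in SYK-WT EGF libraries and 37.1 and 39% in SYK-WT libraries. RCOR1 made up 62.7 and 63.0% in SYK-KO EGF, 44.3 and 46.9% in SYK-KO, 61.4 and 65.3% in SYK-WT EGF and 34.2 and 34.2% in SYK-WT libraries. RCOR2 was thus the largest of the 3 in both untreated SYK-WT libraries and the smallest in all 6 others. The summed level moved less, at 18.3 and 18.3 FPKM in SYK-KO EGF, 17.9 and 18.2 in SYK-KO, 14.7 and 16.7 in SYK-WT EGF and 18.9 and 21.5 in SYK-WT libraries. These shares were not tested.

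**Figure D2:**
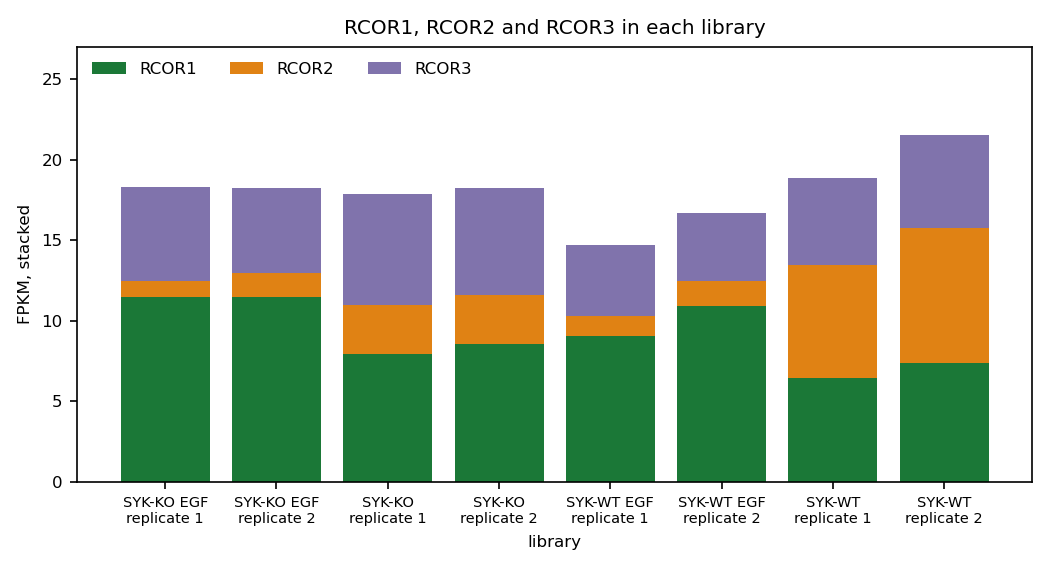
FPKM of RCOR1, RCOR2 and RCOR3 (vertical axis, stacked from 0) in each of the 8 libraries (horizontal axis). The RCOR2 segment is widest in the untreated SYK-WT libraries, at 37.1 and 39% of the sum, and narrowest in the SYK-KO EGF libraries, at 5.15 and 7.89%.

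Promoter sequence was at hand for 6 of the 9 genes, as 9 windows in the RefSeq table for GRCh38.p14. RCOR2, NPTX1 and SCG2 had no window. VGF and ADRA2A are shown because EGF-treated cells had more of the one and less of the other. Each line gives the 250 bases before the start site, 5′ to 3′ on the strand of the gene, for VGF chr7:101165570-101165819 on the minus strand and for ADRA2A chr10:111076779-111077028 on the plus strand. Capitals mark matches, on either strand, to the cyclic AMP response element TGACGTCA or its part TGACG, to the E-box CACGTG, to TATAAA and to GGACAGC, the right part of the RE1.
VGF: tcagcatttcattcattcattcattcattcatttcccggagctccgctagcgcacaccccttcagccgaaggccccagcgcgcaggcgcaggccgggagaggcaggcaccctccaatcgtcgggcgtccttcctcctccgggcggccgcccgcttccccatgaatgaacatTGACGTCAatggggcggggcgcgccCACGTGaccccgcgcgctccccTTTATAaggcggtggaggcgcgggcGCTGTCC
ADRA2A: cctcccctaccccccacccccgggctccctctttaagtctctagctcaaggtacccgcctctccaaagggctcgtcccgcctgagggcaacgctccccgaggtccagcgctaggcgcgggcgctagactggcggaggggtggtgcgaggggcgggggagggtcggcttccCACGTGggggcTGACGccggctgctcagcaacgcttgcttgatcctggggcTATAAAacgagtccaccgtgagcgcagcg
VGF held the full TGACGTCA at -79 to -72, which 1.65% of the 35116 windows in the table hold, and both TGACG matches lie inside it. Both windows held CACGTG (6.34% of all windows), at -54 to -49 in VGF and at -80 to -75 in ADRA2A. ADRA2A also held TGACG at -69 to -65 (21.2% of all windows) and TATAAA at -29 to -24 (10.7%), and VGF held TATAAA on the opposite strand at -32 to -27. GGACAGC (4.76% of all windows) was found on the opposite strand of VGF at -7 to -1, and also in a REST and a RCOR1 window. TTCAGCACC, the left part of the RE1, was in none of the 250-base stretches searched for these genes (0.288% of all windows). The VGF match to GGACAGC ends at the last base searched, so a left part past the start site of VGF would have been missed. The AP-1 motif TGANTCA was in a REST window only (6.57%). A match describes letters in the window and not a bound site.

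VGF, which encodes the precursor of several secreted neuropeptides, was far lower in SYK-KO than in SYK-WT cells after EGF. VGF (chr7:100805790-100808852, hg19) had 4.81 and 3.05 FPKM in SYK-KO EGF libraries, 1.49 and 1.03 in SYK-KO libraries, 17.5 and 17.2 in SYK-WT EGF libraries and 4.39 and 1.90 in SYK-WT libraries. The SYK-WT EGF pair stood above all others, and SYK-KO EGF libraries overlapped untreated SYK-WT libraries. With EGF, the SYK-KO mean was 0.226 of the SYK-WT mean, a log2 difference of -1.92 ± 0.279 (limma adjusted p = 0.00153) that passed in all 14 alternatives. Untreated, the difference was -0.81 ± 0.279 (limma adjusted p = 0.0496), just inside the threshold. The call held in 3 of 14 alternatives (adjusted p from 0.00161 to 0.206) and ended without any library other than SYK-WT replicate 2; leaving out SYK-WT replicate 1 gave -0.37 and leaving out replicate 2 gave -1.26. As a description, the mean after EGF was 3.11 times the untreated mean in SYK-KO cells and 5.51 times in SYK-WT cells.

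NPTX1, a secreted pentraxin that gathers glutamate receptors at synapses, was likewise highest in SYK-WT EGF libraries and lowest in untreated SYK-KO libraries. NPTX1 (chr17:78440633-78450404, hg19) had 1.77 and 1.55 FPKM in SYK-KO EGF libraries, 0.619 and 0.633 in SYK-KO libraries, 15.5 and 16.0 in SYK-WT EGF libraries and 4.77 and 0.900 in SYK-WT libraries. The SYK-KO pairs and the SYK-WT EGF pair were tight, while the untreated SYK-WT libraries differed 5.30-fold. With EGF, the SYK-KO mean was 0.105 of the SYK-WT mean, a log2 difference of -2.66 ± 0.411 (limma adjusted p = 0.00196) that passed in all 14 alternatives. Untreated, the difference of -1.03 ± 0.411 did not pass (limma adjusted p = 0.0798). Leaving out SYK-WT replicate 1 gave -0.22, and leaving out replicate 2 gave -1.83. Each of these fits holds a single untreated SYK-WT library, so the wide gap of that pair no longer enters the spread. The authors' deposited table gave q = 0.000583 for VGF and for NPTX1 in both genotype comparisons. As a description, the log2 difference after EGF was 0.71 in SYK-KO cells and 2.34 in SYK-WT cells, where leaving out SYK-WT replicate 1 gave 3.14 and leaving out replicate 2 gave 1.54.

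SCG2, the granin secretogranin II, was low throughout and was not tested, because it reached 1 FPKM in a single library. SCG2 (chr2:224461658-224467217, hg19) had 1.06 and 0.819 FPKM in SYK-KO EGF libraries, 0.784 and 0.841 in SYK-KO libraries, 0.889 and 0.623 in SYK-WT EGF libraries and 0.657 and 0.467 in SYK-WT libraries. These values correspond to an estimated 30 to 63 fragments per library, and in each of the 4 comparisons the groups overlapped, except that SYK-KO lay above SYK-WT without EGF. With no filter on low values, none of the 4 comparisons passed (limma adjusted p from 0.194 to 0.702).

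ADRA2A, the Gi-coupled alpha-2A adrenergic receptor, was low in all EGF libraries of both genotypes. ADRA2A (chr10:112836790-112840662, hg19) had 1.57 and 1.56 FPKM in SYK-KO EGF libraries, 6.07 and 7.49 in SYK-KO libraries, 1.54 and 2.11 in SYK-WT EGF libraries and 10.4 and 7.31 in SYK-WT libraries. Treated and untreated libraries were far apart, and the genotypes overlapped in both states. As a description, the mean after EGF was 0.231 of the untreated mean in SYK-KO cells and 0.206 of it in SYK-WT cells. The genotype difference did not pass, at -0.13 with EGF (95% interval -0.51 to 0.25; limma adjusted p = 0.543) and -0.33 untreated (-0.71 to 0.05; limma adjusted p = 0.148). The difference with EGF was 0.01 without SYK-WT EGF replicate 2, and the untreated difference was -0.55 without SYK-WT replicate 2, where it passed (limma adjusted p = 0.0144).

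KCNIP1, a calcium-binding subunit of Kv4 potassium channels, had higher values in SYK-KO than in SYK-WT cells, unlike the other neuronal genes tested. KCNIP1 (chr5:169780491-170163637, hg19) had 1.46 and 1.57 FPKM in SYK-KO EGF libraries, 5.06 and 5.83 in SYK-KO libraries, 0.261 and 0.202 in SYK-WT EGF libraries and 0.927 and 0.930 in SYK-WT libraries. All 4 groups were separate. KCNIP1 passed the filter on low values only through the 4 SYK-KO libraries, where it is high, so its genotype values are a description and carry no test. With EGF the SYK-KO mean was 6.54 times the SYK-WT mean, a log2 difference of 1.03 ± 0.0890 (SE), and untreated it was 5.86 times the SYK-WT mean, at 1.74 ± 0.0890. EGF-treated cells had 0.278 of the untreated mean in SYK-KO and 0.249 of it in SYK-WT, given as a description. The locus also lists KCNIP1-OT1, KCNMB1 and KCNIP1-AS1, none above 0.0260 FPKM, and the strand of the reads is not given in the sources used here. Its estimated 6 to 9 fragments in SYK-WT EGF libraries limit the precision there.

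**Figure D3:**
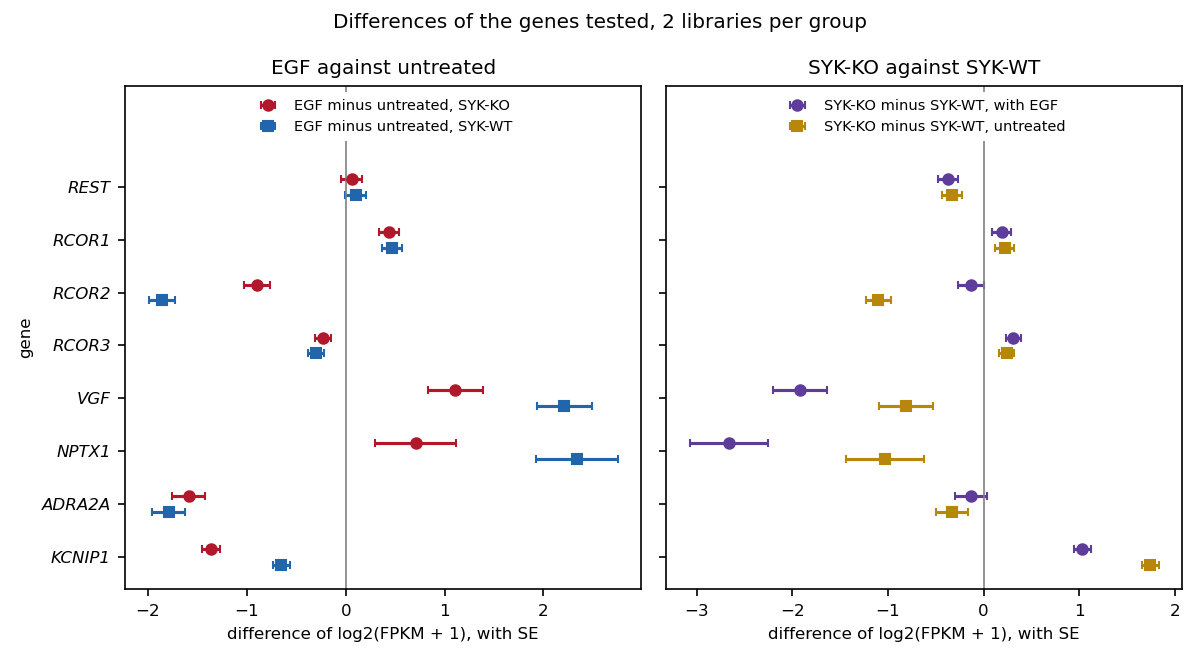
Differences of log2(FPKM + 1) with SE (horizontal axes) for the 8 genes tested (vertical axis), EGF against untreated on the left and SYK-KO against SYK-WT on the right, from limma over 8 libraries. NPTX1 at -2.66 and VGF at -1.92 lie furthest below 0 in SYK-KO against SYK-WT with EGF, KCNIP1 at 1.03 and 1.74 lies above 0 in both genotype comparisons, and the EGF panel is a description for the genes picked by their EGF response, as are both genotype values of KCNIP1.

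Counted together, 5 of the 8 genes tested passed in SYK-KO against SYK-WT with EGF, 2 higher and 3 lower, where 43.6% of all loci passed (21.1% higher and 22.5% lower). Untreated, 5 of 8 passed, again 2 higher and 3 lower, beside 40.5% of all loci (20.3% higher and 20.2% lower). KCNIP1, which passed the filter only through its SYK-KO libraries, is 1 of the 2 higher genes in each state. With so many loci past the threshold, the counts say little about the genes as a set. In both states the number changed when single libraries were left out. It fell with EGF without either SYK-WT EGF library or either SYK-KO EGF library. Untreated, it rose without SYK-WT replicate 2 and fell without any other library. Such fits change the spread shared within every locus, so these changes need not be particular to these genes. EGF in SYK-KO cells had 5 of 8 called (2 higher and 3 lower, beside 11.8% of all loci, 6.67% higher and 5.13% lower), and EGF in SYK-WT cells had 7 of 8 called (3 higher and 4 lower, beside 26.7%, 14.7% higher and 12.1% lower), but those contrasts were used in the choice of the genes. The number for SYK-KO fell without any 1 of the 4 SYK-KO libraries or either SYK-WT EGF library, and rose without either untreated SYK-WT library. The difference of the EGF responses between SYK-KO and SYK-WT cells is built from the same contrasts, and 0 of 8 genes passed it by limma, with 1 of 12112 loci (0.00826%). At an unadjusted p under 0.05 the number was 4 of 8, beside 8.83% of all loci. As a description, the differences of the responses were -0.71 for KCNIP1, 0.96 for RCOR2, -1.63 for NPTX1 and -1.11 for VGF. For KCNIP1 that value shrank to -0.14 when 0.1 was added before the logarithm in place of 1. Leaving out SYK-WT replicate 1 gave -0.71 for KCNIP1, 1.08 for RCOR2, -2.43 for NPTX1 and -1.55 for VGF. Leaving out replicate 2 gave -0.83 for NPTX1.

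Some of these genes differed within the pairs, NPTX1 and VGF most in the untreated SYK-WT pair. NPTX1 was higher in replicate 1 by 1.60 on the log2 scale, a gap that only 33 of 12112 loci (0.272%) exceeded. VGF was higher in replicate 1 by 0.89, with 88 loci (0.727%) beyond it, and ADRA2A by 0.45, with 7.46% of loci beyond it. Gaps of ADRA2A were rarer for their pairs elsewhere, at -0.26 in SYK-KO libraries (3.39% of loci beyond it) and -0.29 in SYK-WT EGF libraries (2.94%). In the untreated SYK-WT pair REST was higher in replicate 1 by 0.29, with 20.2% of loci beyond it. There the CoREST genes and KCNIP1 lay within the common range, from -0.23 to 0.00. The synaptic vesicle gene SYP, named after its values were seen, was higher in replicate 1 of that pair by 1.32, with 0.339% of loci beyond it. It had 4.51 and 1.21 FPKM in the pair. SYP was also higher in replicate 1 elsewhere, by 0.25 in SYK-KO EGF (6.93% of loci beyond it), 0.29 in SYK-KO (2.6%) and 0.2 in SYK-WT EGF libraries (9.11%). In the other groups VGF again had wide gaps in SYK-KO cells, 0.52 in SYK-KO EGF libraries (0.636% of loci beyond it) and 0.29 in SYK-KO libraries (2.59%). Its gap in SYK-WT EGF libraries was 0.02. RCOR2 had -0.33 in SYK-KO EGF libraries (2.64%). NPTX1 gaps were 0.11, -0.01 and -0.04 in SYK-KO EGF, SYK-KO and SYK-WT EGF libraries.

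**Figure D4:**
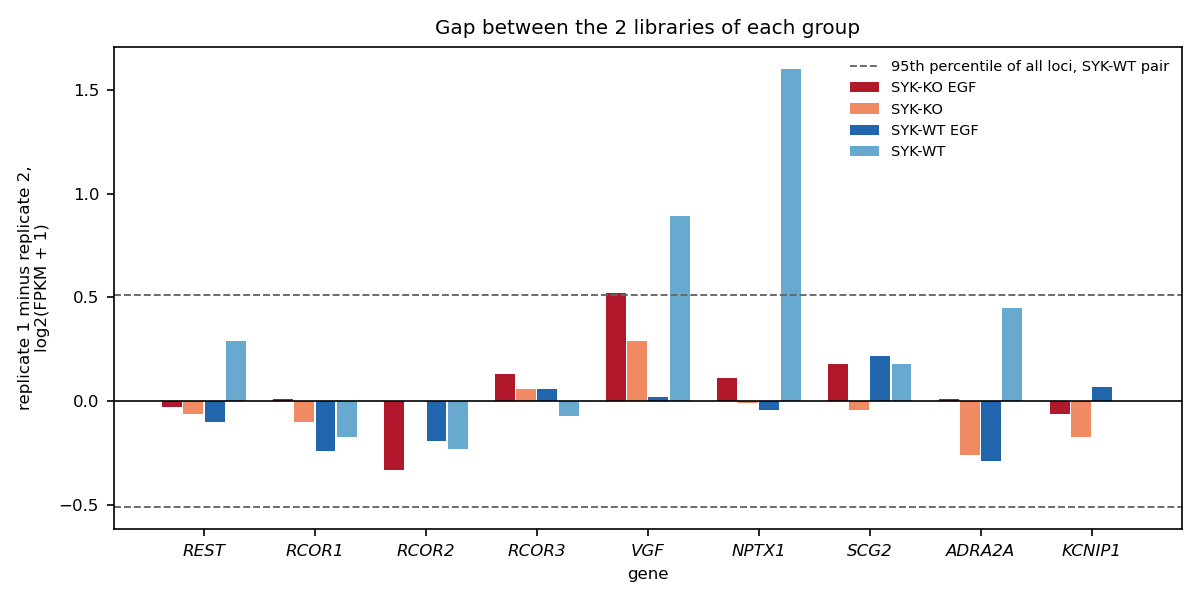
Replicate 1 minus replicate 2 in log2(FPKM + 1) (vertical axis) for each gene (horizontal axis) and group (colours), with dashed lines at the 95th percentile of the absolute gap of all loci in the untreated SYK-WT pair, 0.510. NPTX1 at 1.60 and VGF at 0.89 in the untreated SYK-WT pair reach well past the lines. VGF in SYK-KO EGF at 0.52 just passes them, but the 95th percentile of the SYK-KO EGF pair itself is lower, at 0.273.

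HDAC1, a deacetylase that CoREST carries, was lower in SYK-KO than in SYK-WT cells in both states. SIN3B was higher there and its paralogue SIN3A lower. These belong to the genes whose proteins work with REST and CoREST on chromatin. Of 19 listed, 18 were tested and EHMT2 is listed at 0. In SYK-KO against SYK-WT cells, 2 rose and 5 fell with EGF, where 21.1% of all loci were higher and 22.5% lower, and 2 rose and 6 fell untreated, where 20.3% were higher and 20.2% lower. Taking both directions, 43.6% of all loci passed with EGF and 40.5% untreated, so the number of partners called lies near the background. The list had medians of -0.11 and -0.15 beside -0.021 and -0.008 over all loci tested. With EGF only 1 or 2 fell when either SYK-WT EGF library or SYK-KO EGF replicate 1 was left out. Untreated, 3 rose and 10 fell when SYK-WT replicate 1 was left out, 4 rose and 5 fell when replicate 2 was, and 3 fell without either untreated SYK-KO library. HDAC1 had 97.7 and 100 FPKM in SYK-KO EGF, 100 and 99.2 in SYK-KO, 129 and 132 in SYK-WT EGF and 131 and 144 in SYK-WT libraries. HDAC1 was lower in SYK-KO cells by -0.39 with EGF and -0.46 untreated (limma adjusted p = 0.00252 and 0.00139). HDAC2, the other deacetylase of CoREST and named after its values were seen, did not pass. Its differences were 0.09 with EGF and 0.19 untreated (limma adjusted p = 0.476 and 0.157). SIN3B, a scaffold of the other arm of REST repression, was higher by 0.42 in both states (0.00215 and 0.00248). All 4 of these HDAC1 and SIN3B calls held in every alternative. SIN3A, a scaffold of the same arm as SIN3B and named after its values were seen, went the other way. It was lower by -0.31 with EGF and -0.25 untreated (limma adjusted p = 0.00912 and 0.0231), and neither SIN3A call held in every alternative. ZMYM2, a zinc finger partner of LSD1, was lower by -0.34 and -0.42 (limma adjusted p = 0.00814 and 0.00336), and its call with EGF ended without SYK-WT EGF replicate 2 (0.0594) or SYK-KO EGF replicate 1 (0.0571). KDM1A, which encodes LSD1, was lower by -0.38 untreated (limma adjusted p = 0.0171), which did not hold without SYK-KO replicate 1 (0.0997) or 2 (0.0618). CTBP1, a corepressor named after its values were seen, shows the reach of the SYK-WT pair: leaving out SYK-WT replicate 1 gave an untreated difference of -0.37, and leaving out replicate 2 gave 0.24, each past the threshold.

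For EGF in SYK-KO cells 0 of the 18 partners passed by limma (2 at an unadjusted p under 0.05), where 11.8% of all loci passed. That count changed when either untreated SYK-WT library was left out. In SYK-WT cells 1 partner rose and 1 fell, where 14.7% of all loci rose and 12.1% fell. SIN3B rose there by 0.22 and ZNF217, a zinc finger protein found with CoREST, fell by 0.29 on the log2 scale (limma adjusted p = 0.0436 and 0.0243). Both SYK-WT calls ended without SYK-WT EGF replicate 1 (limma adjusted p = 0.0971 and 0.134) or 2 (0.243 and 0.0973), that of SIN3B also ended without any other library except SYK-WT replicate 1, and leaving out SYK-WT replicate 1 gave 2 rises and 7 falls. Among 9 genes that set REST protein level or activity, 7 were tested. CTDSPL, a small phosphatase recruited by REST, fell with EGF in SYK-WT cells, with 5.06 and 5.63 FPKM against 8.59 and 10.1 untreated, a log2 difference of -0.70 (limma adjusted p = 0.00232). BTRC, the ubiquitin ligase subunit that targets REST for breakdown, rose there by 0.27 (limma adjusted p = 0.049), which held in 2 of 14 alternatives (0.00934 to 0.237) and ended without any library other than SYK-WT replicate 1. Between genotypes untreated, CTDSPL was lower in SYK-KO cells by -0.42 (limma adjusted p = 0.0118), a call that did not hold without SYK-KO replicate 1 (-0.37). Between genotypes with EGF, 0 of 7 passed by limma (0 at an unadjusted p under 0.05), where 43.6% of all loci passed. The count of 0 changed when either untreated SYK-WT library was left out.

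Of 28 neuronal genes known as REST targets, 13 were tested, and the others lay below the filter or at a merged locus. This list, like the others, was chosen with earlier results of these data known, so its p-values are not free of that choice. After EGF, 3 rose and 0 fell in SYK-KO cells, where 6.67% of all loci rose and 5.13% fell, and 6 rose and 0 fell in SYK-WT cells, where 14.7% rose and 12.1% fell. The list had medians of 0.12 and 0.36 beside 0.001 and 0.008 over all loci tested. Without any 1 SYK-KO library the number in SYK-KO cells was 1, and without SYK-WT EGF replicate 2 the number in SYK-WT cells was 2. STX1A, the syntaxin of the synaptic fusion machinery, had 24.0 and 22.7 FPKM in SYK-KO EGF libraries against 9.33 and 8.60 in SYK-KO libraries, and 15.9 and 14.9 in SYK-WT EGF libraries against 6.13 and 6.99 in SYK-WT libraries. Its rises of 1.29 and 1.12 (limma adjusted p = 0.000231 and 0.000185) held in all 14 alternatives. TUBB3, the neuronal beta-tubulin, rose by 0.49 and 0.89 (0.0122 and 0.000564), and the SYK-KO call ended without any 1 of the 4 SYK-KO libraries (0.0579 to 0.115). Smaller rises passed for UNC13A, a vesicle priming factor, by 0.43 and 0.46. SYN1, a synaptic vesicle protein, had 1.10 and 1.04 FPKM in SYK-WT EGF libraries and 0.217 to 0.595 FPKM in the other 6, so it passed the filter only where it is high. It is counted among the 6 in SYK-WT cells, and its difference there of 0.53 is a description. The UNC13A call in SYK-KO cells ended without any library outside the untreated SYK-WT pair (limma adjusted p from 0.0547 to 0.189), and that in SYK-WT cells without SYK-WT EGF replicate 2 (0.112).

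Between genotypes UNC13A and L1CAM were lower, and CALB1 and STX1A higher, in SYK-KO than in SYK-WT cells. With EGF, 4 of the 13 REST targets were higher and 3 lower, SYN1 among the lower, where 43.6% of all loci passed. Untreated, 4 were higher and 2 lower, where 40.5% of all loci passed, so both numbers lie near the background. The medians were -0.12 and 0.06. Untreated, more were higher without SYK-WT replicate 1, and more were lower without replicate 2. Without SYK-KO replicate 1 fewer were higher, with STX1A at 0.35 and TUBB3 at 0.31 among those whose untreated calls ended. With EGF, 4 were higher and 6 lower when either untreated SYK-WT library was left out, and 2 higher and 3 lower when either SYK-KO EGF library was. UNC13A had 3.26 and 3.88 FPKM in SYK-KO EGF, 2.41 and 2.36 in SYK-KO, 8.78 and 10.0 in SYK-WT EGF and 7.01 and 6.10 in SYK-WT libraries, lower in SYK-KO by -1.19 and -1.16 (limma adjusted p = 0.000164 and 0.000183). The cell adhesion molecule L1CAM was lower by -0.69 and -0.66 (0.00498 and 0.00629). SYN1 had 0.387 and 0.294 FPKM in SYK-KO EGF libraries against the values in SYK-WT EGF libraries given above, a difference of -0.63 that is again a description. CALB1, the calcium buffer calbindin, was higher by 0.48 and 0.41 (0.00125 and 0.00272) and STX1A by 0.57 and 0.40 (0.00148 and 0.0073). Each of these UNC13A, L1CAM, CALB1 and STX1A calls held in all 14 alternatives except STX1A untreated, which ended without SYK-KO replicate 1 (0.0653). ENO2, counted above among the identity markers, moved with UNC13A and L1CAM and was lower in SYK-KO cells by -0.96 with EGF and -1.13 untreated (limma adjusted p = 0.000627 and 0.000332). ENO2 also rose with EGF in SYK-KO cells, by 0.45 (0.0417), a call that ended without any library outside the untreated SYK-WT pair (0.052 to 0.214). Its part in the other differences was not tested.

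Dense-core granules store and process secreted peptides such as those of VGF and SCG2, and PCSK1N and CPE, both of this pathway, were higher in SYK-KO than in SYK-WT cells. Only 3 of 12 dense-core granule genes were tested, and CHGA, CHGB, SCG3, SCG5, PCSK1, PCSK2, PTPRN, PTPRN2 and CADPS stayed at or under 0.796 FPKM. All 3 were higher in SYK-KO than in SYK-WT cells in both states, where 21.1% of all loci were higher with EGF and 20.3% untreated. PCSK1N, an inhibitor of prohormone convertase, had 49.9 and 44.6 FPKM in SYK-KO EGF, 47.4 and 46.2 in SYK-KO, 26.9 and 27.7 in SYK-WT EGF and 21.6 and 21.9 in SYK-WT libraries. Its differences were 0.77 and 1.07 (limma adjusted p = 0.000195 and 4.34e-05), beside 0.62 and 0.70 for carboxypeptidase E, CPE (0.00184 and 0.00115), all in every alternative. The amidating enzyme PAM was higher by 0.31 and 0.46 (0.0312 and 0.00729), with calls that ended without SYK-WT EGF replicate 1 (0.196), SYK-KO EGF replicate 1 (0.0794) or 2 (0.148) for the first value, and without SYK-KO replicate 2 (0.0588) for the second. With EGF in SYK-WT cells PCSK1N rose by 0.32 (limma adjusted p = 0.0142), a call lost without SYK-WT EGF replicate 1 (0.0705) or 2 (0.0961).

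Relatives of the other genes showed their own patterns. Of the pentraxins, NPTX2 passed in no comparison (2.53 to 3.28 FPKM), PTX3 stayed at or under 0.0386 FPKM, and the receptor NPTXR was higher in SYK-KO than in SYK-WT cells with EGF by 0.47 (limma adjusted p = 0.0245; 0.0623 to 0.132 without any 1 of the 4 EGF libraries). Of 8 adrenergic receptors other than ADRA2A, 3 were tested. ADRA1B, the alpha-1B receptor, had 13.7 to 14.8 FPKM in SYK-KO and 3.17 to 4.72 FPKM in SYK-WT libraries over both states, higher in SYK-KO by 1.61 and 1.64 (limma adjusted p = 0.000254 and 0.000234), calls that held in all 14 alternatives. The Kv4 partners of KCNIP1 (KCNIP2, KCNIP3, KCNIP4, KCND1, KCND2, KCND3, DPP6 and DPP10) stayed at or under 0.959 FPKM and none was tested. Of 9 activity-inducible genes 5 were tested: the cyclic AMP response modulator CREM was higher in SYK-KO cells by 0.48 with EGF and 0.64 untreated (0.0181 and 0.00594), and CREB1 lower by -0.68 untreated (0.0125). The CREM call with EGF ended without SYK-KO EGF replicate 1 (0.116) and without SYK-WT EGF replicate 1 (0.0798) or 2 (0.0817), and that of CREB1 without SYK-KO replicate 1 (0.0792). NR4A1, an orphan nuclear receptor, was higher in SYK-KO cells with EGF by 0.34 (0.0141), lost without SYK-WT EGF replicate 1 (0.0937), SYK-KO EGF replicate 1 (0.0645) or 2 (0.0686).

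**Figure D5:**
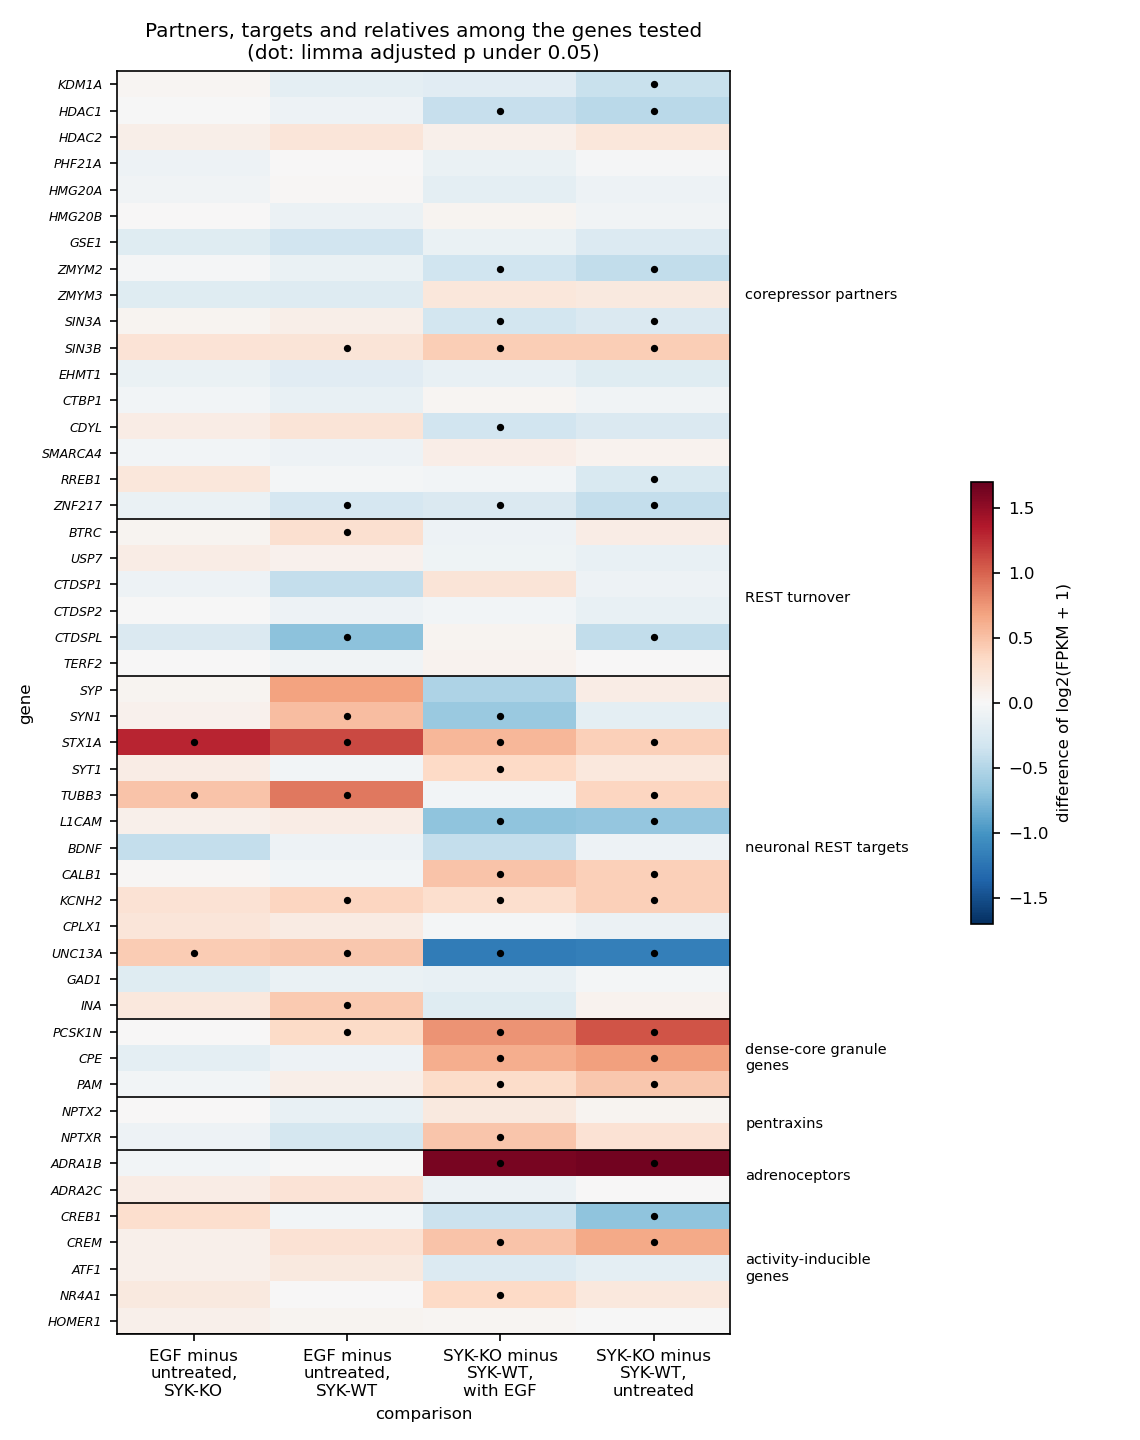
Differences of log2(FPKM + 1) (colour scale) for genes of the lists that were tested (vertical axis) in the 4 comparisons (horizontal axis), with a dot where the limma adjusted p was under 0.05. UNC13A and L1CAM are blue and PCSK1N, CPE and ADRA1B red in both SYK-KO comparisons, and STX1A is red after EGF in both genotypes.

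Loci with the most similar pattern over the 8 libraries were taken by the smallest root-mean-square difference of centred log2(FPKM + 1). RCOR2 was closest to CILP (0.143), a cartilage matrix protein, DLX3 (0.167), a homeobox factor, and LRRN1 (0.178). VGF and NPTX1 were near each other (0.356), and both were near FAM25A (0.239 for VGF and 0.393 for NPTX1), whose family has near-identical copies, so its value is uncertain. The third locus was LDAF1 for VGF (0.363) and the cyclooxygenase PTGS2 for NPTX1 (0.421). ADRA2A was closest to the phosphate transporter SLC34A2 (0.318), KCNIP1 to the lectin-like receptor OLR1 (0.192), and REST to ZFAT (0.0303). PTGS2 had means of 12.2 FPKM in SYK-KO EGF, 6.48 in SYK-KO, 68.9 in SYK-WT EGF and 31.9 in SYK-WT libraries. All these likenesses are descriptions over libraries that share the same groups.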

How the data were processed

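RNA from OVISE cells was read as paired-end Illumina libraries, per the labels' protocols. FPKM per locus and library were made by the authors with TopHat, Cufflinks and Cuffdiff 2.2.1.3 on hg19, per the submitters' processing notes; scaling, other parameters and strand were not given in the sources used here. The q-values are those of the authors' deposited table. Groups and replicate numbers came from the sample titles. Symbols were found for 27541 of 27757 loci from RefSeq and GENCODE tables.

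The 12112 loci with 1 FPKM or more in 2 or more libraries were fitted as log2(FPKM + 1) with limma 3.58.1 (R 4.3.3, mean-variance trend, all 4 groups, no replicate block), with two-sided p-values, Benjamini-Hochberg adjustment within each of 5 contrasts and a threshold of 0.05. The fit was tested on simulated data. Depth was estimated from the worth of a single fragment in loci of at most 0.05 FPKM; fragment numbers per gene follow from it and are approximate. Starts in the table count from 0 and were shifted to count from 1.

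The genes and lists were chosen with earlier results of these data known. Named genes are the 9, SYK, up to 4 per list and comparison with the smallest adjusted p, all markers, and the 3 nearest patterns per gene; others are said to be chosen after their values were seen. Some listed genes are counted but not reported here by name. The 14 alternatives are a pseudocount of 0.1, no filter, equalised library medians, only the groups compared, the replicate block, library quality weights, and each of 8 libraries left out. Where a library is left out, its group holds a single library, and the gap of that pair no longer enters the spread.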

Additional observations from a re-analysis of the deposited data

How the results depend on the processing

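The titles number the libraries of each group, but nothing in the labels pairs equal numbers, and the differences between replicates correlated between groups from -0.381 to 0.27. With a replicate block the number of the 8 genes called was 5 in SYK-KO against SYK-WT with EGF, 5 untreated, 5 for EGF in SYK-KO, 7 for EGF in SYK-WT and 0 for the difference of responses, the same numbers as without it. Of the 8 genes, the calls for SYK-KO against SYK-WT untreated fell to 2 with no filter on low values, 2 with a fit of just those 2 groups and 3 under quality weights per library, and ran from 2 to 8 when single libraries were left out. Those for SYK-KO against SYK-WT with EGF ran from 3 to 5 without single libraries. Those for EGF in SYK-KO numbered 3 with no filter and 2 to 7 without single libraries, and those for the difference of responses 0 to 4. Without single libraries the sign turned for small values only: REST for EGF in SYK-WT (from -0.05 to 0.25), the difference of responses of REST (-0.19 to 0.11, with 0.01 between), RCOR1 (-0.16 to 0.09, with 0.05 and 0.01 between) and ADRA2A (-0.03 to 0.42), and SYK-KO against SYK-WT with EGF for RCOR2 (-0.30 to 0.03) and ADRA2A (-0.28 to 0.01). Over all loci, EGF in SYK-WT had 3238 calls, against 1254 with only 2 groups and 1877 with quality weights; EGF in SYK-KO had 1429, against 2646 and 3024; SYK-KO against SYK-WT untreated had 4902, against 3007 with only 2 groups; the difference of responses had 1, against 2 with no filter, 2 with quality weights, 867 when SYK-WT replicate 1 was left out and 52 when replicate 2 was. The causes were not tested. Low levels limit the precision for SCG2 in all groups and for KCNIP1 in SYK-WT cells.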

Other observations

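Of the 6 epithelial and clear cell markers, 2 passed after EGF in SYK-KO cells, both higher, where 6.67% of all loci were higher and 5.13% lower. In SYK-WT cells 3 passed, 2 higher and 1 lower, where 14.7% of all loci were higher and 12.1% lower. KRT8 and KRT18, the simple epithelial keratins, rose after EGF by 0.68 and 0.63 on the log2 scale in SYK-KO cells (limma adjusted p = 0.0042 and 0.0076) and by 1.05 and 1.0 in SYK-WT cells (0.000391 and 0.00057). The SYK-KO values lost the call without SYK-KO EGF replicate 1 (0.0552 and 0.0709), and that of KRT18 also without SYK-KO replicate 2 (0.063). CDH1, which encodes E-cadherin, fell after EGF in SYK-WT cells by 0.50 on the log2 scale (limma adjusted p = 0.00862; 0.0566 or 0.0586 when either SYK-WT EGF library was left out), and its difference in SYK-KO cells was -0.31 (0.081). CDH1 was lower in SYK-KO than in SYK-WT cells by -0.88 with EGF and -1.07 untreated (limma adjusted p = 0.000445 and 0.000189), and both calls held in all 14 alternatives. KRT18 was higher in untreated SYK-KO cells by 0.68 (0.00166), also in all 14. CALB2, the calcium buffer calretinin found in mesothelium and in some neurons, had 3.62 and 2.96 FPKM in SYK-KO EGF, 0.586 and 0.287 in SYK-KO, 1.98 and 1.81 in SYK-WT EGF and 0.342 and 0.143 in SYK-WT libraries. It passed the filter only through the 4 EGF libraries, so its differences after EGF, 1.58 in SYK-KO and 1.22 in SYK-WT, are a description. LAPTM5, a lysosomal protein of blood cells, rose after EGF in SYK-KO cells by 0.76 (limma adjusted p = 0.00208). Against SYK-WT, LAPTM5 in untreated SYK-KO cells was lower by -0.49 (limma adjusted p = 0.00386) and CALB2 higher in SYK-KO cells with EGF by 0.56 (0.0124), a difference that did not pass without SYK-WT EGF replicate 2 (0.075) or SYK-KO EGF replicate 1 (0.0857). The 9 blood, stromal, endothelial and mesothelial markers summed to 8.81 to 10.5 FPKM in SYK-KO EGF, 3.86 to 3.88 in SYK-KO, 7.38 to 7.43 in SYK-WT EGF and 5.02 to 5.24 in SYK-WT libraries; their part in the other results was not tested.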
